A study of Mus musculus with 30 samples.

Results

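The 9 genes described here carry the interferon signal from the cell surface to the nucleus: the receptor chains Ifngr1, Ifngr2, Ifnar1 and Ifnar2, the kinases Jak1 and Jak2, the transcription factor Irf1 and the feedback inhibitors Socs1 and Socs3. They were chosen by name from the pathway and not by a cutoff on their values, though earlier results of these data were known. All 9 were found among the 53431 genes of the tables. They were followed through 30 RNA-seq libraries of CT-26 and Colon 26, mouse colon carcinoma lines that form tumors in BALB/c mice. Each line was represented by 3 cultures and by 4 subcutaneous tumors at each of 3 sizes, about 100, 400 and 800 mm3, from the right flank of female mice, which makes 8 groups. The age of the mice is not given in the sources used here, and the tumors were taken as untreated, since no sample label names an antibody, although the general treatment text of the labels describes dosing. Each model is a single cell line in one mouse strain, and a tumor library holds tumor cells together with the host's stroma and leukocytes.

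Type II interferon, the product of Ifng, binds a receptor in which Ifngr1 is the ligand-binding chain and Ifngr2 the signaling chain that brings in Jak2, while Jak1 sits on Ifngr1. Type I interferons bind Ifnar1, which carries the kinase Tyk2, and Ifnar2, which carries Jak1. The kinases phosphorylate STAT proteins, which bind GAS elements or interferon-stimulated response elements in the DNA, and Irf1 is an early target that passes the signal on to antigen-processing and chemokine genes. Socs1 blocks the kinases of the interferon receptors, and Socs3 acts mainly on receptors that use gp130.

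On GRCm38 (GENCODE M21), Ifnar2 (chr16:91372783-91405589), Ifnar1 (chr16:91485238-91507441) and Ifngr2 (chr16:91547072-91565623) lie one after the other on the plus strand of chromosome 16, and Ifngr1 lies apart from them (chr10:19591949-19610229, plus strand). Jak1 is at chr4:101152367-101265282 on the minus strand and Jak2 at chr19:29251828-29313080 on the plus strand. Irf1 is at chr11:53770014-53778374 on the plus strand, Socs1 at chr16:10782240-10785536 and Socs3 at chr11:117966079-117970047, both on the minus strand. Exons of 3 of these genes overlap another gene: Irf1 with Gm17334 on the opposite strand, Jak1 with Raver2 on the opposite strand and Ifnar2 with Gm21970 on the same strand. These partners were low, at no more than 1.83 FPKM (fragments scaled by gene length and library size) in any library for Gm17334, 0.129 FPKM for Raver2 and 0.0931 FPKM for Gm21970.

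The promoters of the 4 members that hold a searched motif are shown because 3 of these genes had the largest tumor-to-culture differences among the 9. In the 250 bases before the RefSeq start (GRCm38.p6), either strand was searched for a GAS motif, TTCNNNGAA, and for a paired GAAA motif, GAAANNGAAA, the core of an interferon response element. Capitals mark the match. Irf1 (chr11:53769764-53770013, plus strand) held 1 GAS match 90 to 82 bases before its first start and none before its other start, and Socs1 (chr16:10785537-10785786, minus strand) held 2 overlapping GAAA matches, 83 to 74 and 77 to 68 bases before its start.
Irf1: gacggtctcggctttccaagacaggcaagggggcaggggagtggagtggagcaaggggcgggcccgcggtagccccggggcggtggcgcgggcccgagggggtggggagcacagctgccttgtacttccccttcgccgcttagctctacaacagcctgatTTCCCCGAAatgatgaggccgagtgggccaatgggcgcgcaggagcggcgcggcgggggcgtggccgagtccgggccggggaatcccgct
Socs1: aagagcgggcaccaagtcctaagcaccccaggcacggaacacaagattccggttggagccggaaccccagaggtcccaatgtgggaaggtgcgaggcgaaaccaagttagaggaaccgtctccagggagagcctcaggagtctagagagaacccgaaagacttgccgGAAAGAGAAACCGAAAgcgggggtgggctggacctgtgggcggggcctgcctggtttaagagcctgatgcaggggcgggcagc
For Ifnar2 and Socs3, 30 bases around the single GAS match are given, at chr16:91372559-91372588 on the plus strand and chr11:117969501-117969530 on the minus strand, where the Socs3 window overlaps an annotated exon.
Ifnar2: tgccaaggccTTCCTGGAAgaagagagtac
Socs3: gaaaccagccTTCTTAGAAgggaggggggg
Of all 32544 mouse promoters of this length, 7.04% held the GAS letters and 2.98% the GAAA letters. The matches are descriptions of the sequence and were not tested for binding.

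Every library held 21384730 to 39722586 counts on genes, and the fewest counts of any member were 82, for Socs1 in a CT-26 culture. The cultures hardly showed the usual colon epithelial markers: of 9 such genes, 8 in CT-26 and 7 in Colon 26 stayed under 1 FPKM in every culture, with Krt20 at 12.5 to 13.2 FPKM in CT-26 and at 2.8 to 3.02 FPKM in Colon 26, and Cdx2 at 2.66 to 2.81 FPKM in Colon 26. Library names in the labels run in separate series for CT-26 cultures, Colon 26 cultures and tumors, so these series cannot be told apart from the line or the tissue in comparisons with cultures. Within the tumor series the names run in blocks by model and size. The order of names thus cannot be told apart from model or size among tumors. Skeletal muscle markers summed to 1158 FPKM in Colon 26 tumor a of 400 mm3 and to 553 FPKM in Colon 26 tumor b of 100 mm3, and leukocyte markers were lowest among tumors in CT-26 tumor c of 400 mm3, at 87.2 FPKM. No label says whether the cultures were grown apart, so p-values measure the spread between these samples, which may be technical for the cultures.

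**Figure D1:**
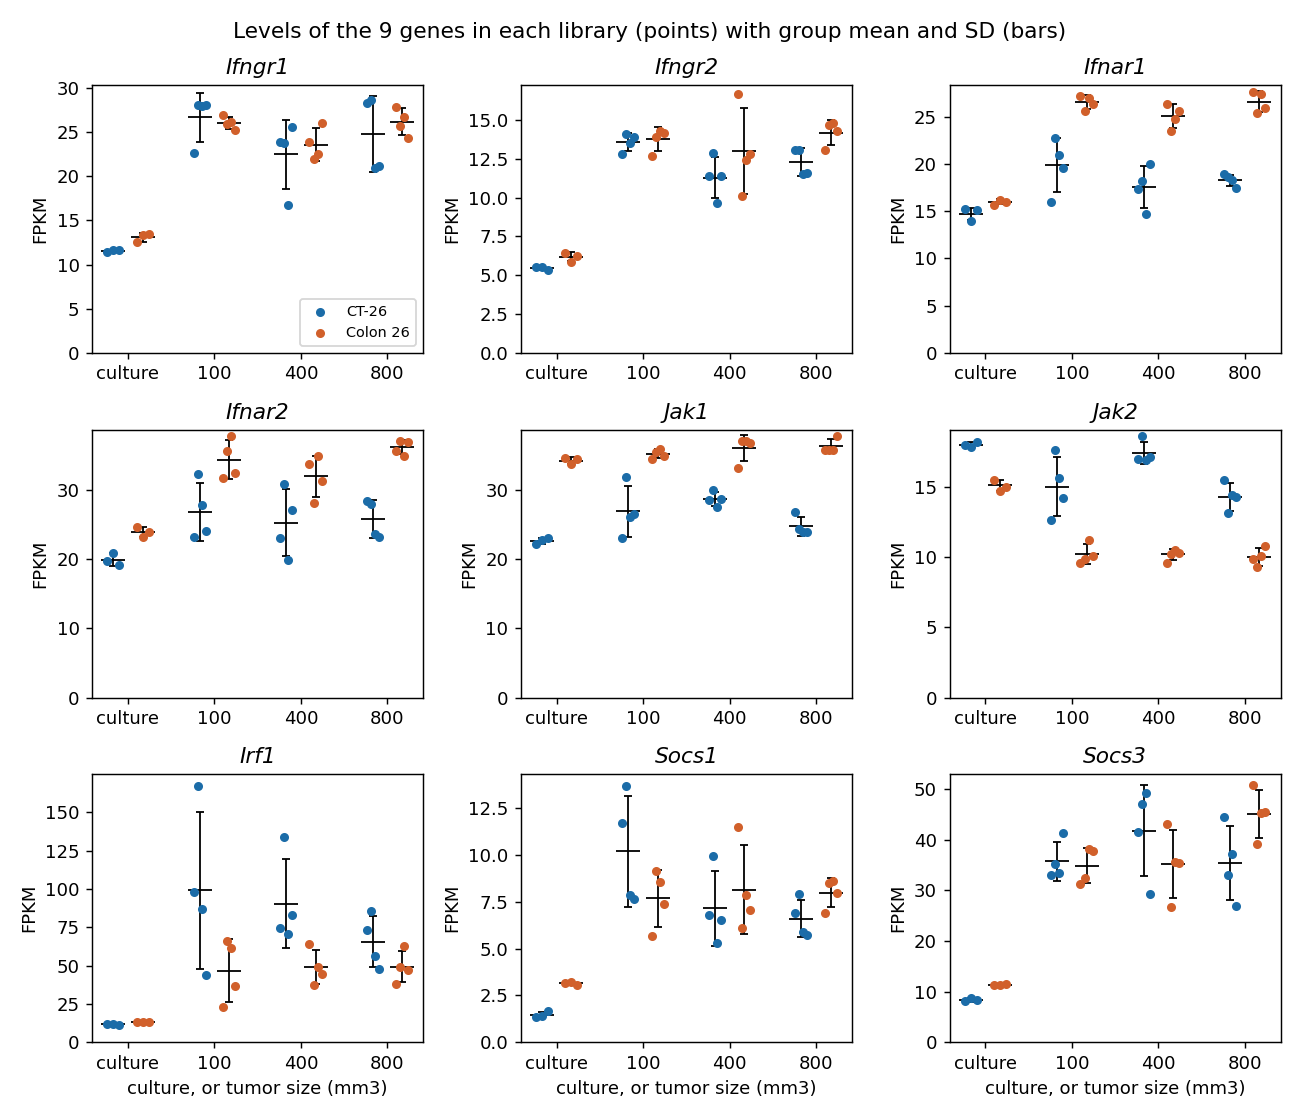
FPKM of each of the 9 genes (linear axes from 0) in cultures and in tumors of 100, 400 and 800 mm3, with a point per library, blue for CT-26 and orange for Colon 26, and black bars for the group mean and SD. Jak1 and Ifnar1 lie higher and Jak2 lower in Colon 26 than in CT-26 at every tumor size, while Irf1, Socs1 and Socs3 stand above the cultures in all tumors.

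In culture, the per-length levels (FPKM) of the 9 genes ran from Jak1 at the top to Socs1 at the bottom in both lines. In CT-26 cultures the means were 22.6 ± 0.407 FPKM for Jak1, 19.9 ± 0.908 for Ifnar2, 18 ± 0.178 for Jak2, 14.7 ± 0.675 for Ifnar1, 11.9 ± 0.341 for Irf1, 11.5 ± 0.0869 for Ifngr1, 8.38 ± 0.344 for Socs3, 5.47 ± 0.114 for Ifngr2 and 1.47 ± 0.171 for Socs1 (SD, n = 3). The neighbours Irf1 and Ifngr1 overlapped in that order, and they overlapped in Colon 26 cultures as well. Ifnar1 and Jak2 exchanged places in Colon 26 cultures, with Ifnar1 at 16 ± 0.253 and Jak2 at 15.1 ± 0.38 FPKM (SD, n = 3).

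The question of the first comparison was how the 2 lines differ before they meet a host. Each of the 9 genes differed between the cultures by an adjusted p of at most 0.1, with 8 higher and 1 lower in Colon 26. Of the 14334 genes tested, 82.6% passed the same threshold, 42.2% higher and 40.4% lower. Under the study's rule for a differentially expressed (DE) gene, which adds a minimum change of 2-fold, 1 member was DE, beside 22.9% of all genes. The median log2 fold change was 0.17 over the members and 0.013 over all genes.

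Socs1, which encodes an inhibitor of the Janus kinases, was the DE member in culture. Its levels were 1.36, 1.39 and 1.67 FPKM in the CT-26 cultures and 3.15, 3.23 and 3.06 FPKM in the Colon 26 cultures. The lines did not overlap, and Colon 26 was 2.12-fold higher (log2 fold change 1.08, SE 0.10, adjusted p = 2.6e-08). Socs3, the related inhibitor, was 1.34-fold higher in Colon 26 (log2 fold change 0.42, SE 0.05, adjusted p = 8.1e-07).

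The kinases differed in opposite directions. Jak1 stood at 22.2, 22.7 and 23 FPKM in CT-26 and at 34.6, 33.7 and 34.4 FPKM in Colon 26 cultures, which made it 1.5-fold higher in Colon 26 (log2 fold change 0.58, SE 0.03, adjusted p = 5.1e-11). Jak2 stood at 18, 17.8 and 18.2 FPKM in CT-26 and at 15.5, 14.7 and 15 FPKM in Colon 26 cultures, 1.21-fold lower in Colon 26 (log2 fold change -0.27, SE 0.03, adjusted p = 1.3e-06). For neither kinase did the lines overlap.

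The 4 receptor chains and Irf1 differed little between the cultures. Their log2 fold changes, all higher in Colon 26, were 0.30 for Ifnar2, 0.17 for Ifngr1, 0.16 for Ifngr2, 0.13 for Ifnar1 and 0.13 for Irf1, with adjusted p of 2.1e-05 to 0.023. In a fit over all 30 libraries, Irf1 (adjusted p = 0.9), Ifngr1, Ifngr2 and Ifnar1 no longer passed, and Irf1 did not pass by DESeq2 (adjusted p = 0.13).

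The tumors of both lines were then compared at each size. Colon 26 tumors had more Jak1 and Ifnar1, less Jak2 and less Irf1 than CT-26 tumors at all 3 sizes. By an adjusted p of at most 0.1, 5 of the 9 members differed at 100 mm3, 4 at 400 mm3 and 7 at 800 mm3, where 56.5%, 52.2% and 59.4% of all genes did. With the minimum of 2-fold, 1 member was DE at 100 mm3 (13.2% of all genes), 0 at 400 mm3 (14.3%) and 0 at 800 mm3 (14.1%). At the larger sizes 4 and 7 members passed the adjusted p by DESeq2, 0 of them with a 2-fold change, and 4 and 6 had an unadjusted p under 0.05 by edgeR. In bulk tumors, fewer cells of a type and less RNA per cell cannot be told apart.

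**Figure D2:**
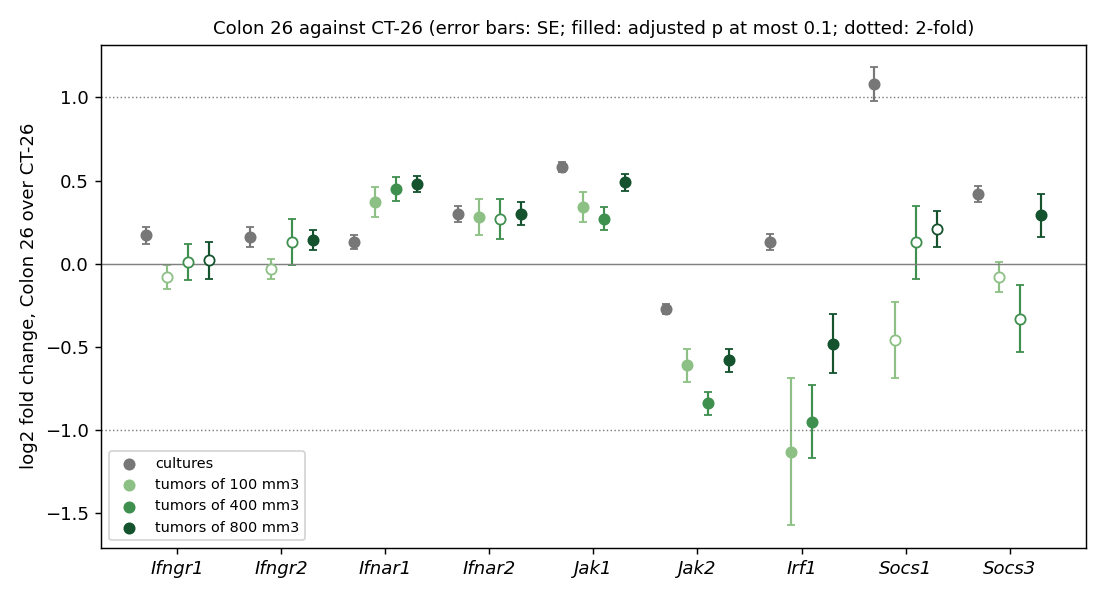
Log2 fold change of Colon 26 over CT-26 (vertical axis) for each of the 9 genes in cultures and in tumors of 3 sizes, with error bars of 1 SE, filled points for an adjusted p of at most 0.1 and dotted lines at 2-fold. Jak1, Ifnar1 and Ifnar2 lie above 0 and Jak2 below 0 in all 4 comparisons, while Irf1 lies at 0.13 in cultures and at -1.13, -0.95 and -0.48 in tumors.

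Jak2 had the largest difference among the members whose groups did not overlap at any size. The CT-26 tumors held 12.6, 17.6, 15.6 and 14.2 FPKM of Jak2 at 100 mm3, 17, 18.6, 16.9 and 17.1 FPKM at 400 mm3 and 15.5, 13.1, 14.4 and 14.3 FPKM at 800 mm3. The Colon 26 tumors held 9.56, 9.87, 11.2 and 10.1 FPKM, then 9.61, 10.2, 10.5 and 10.3 FPKM, then 9.86, 9.28, 10.1 and 10.8 FPKM. Every CT-26 tumor thus lay above every Colon 26 tumor. The share of all genes that part the models without overlap is not given here, for Jak2 or for the genes below. By the adjusted p, 56.5%, 52.2% and 59.4% of all genes differed at the 3 sizes, so a lack of overlap need not be particular to these genes. Colon 26 was 1.52-fold lower at 100 mm3 (log2 fold change -0.61, SE 0.10, adjusted p = 0.0009), 1.79-fold lower at 400 mm3 (-0.84, SE 0.07, adjusted p = 3.3e-05) and 1.5-fold lower at 800 mm3 (-0.58, SE 0.07, adjusted p = 5.1e-05).

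Jak1 was higher in Colon 26 at each size, again without overlap. It was measured at 23.1, 31.9, 26.1 and 26.5 FPKM in CT-26 tumors of 100 mm3 and at 34.5, 35.4, 35.9 and 34.8 FPKM in Colon 26 tumors of that size. The CT-26 tumors spread more widely than the Colon 26 tumors. The log2 fold changes were 0.34 (SE 0.09, adjusted p = 0.0098) at 100 mm3, 0.27 (SE 0.07, adjusted p = 0.014) at 400 mm3 and 0.49 (SE 0.05, adjusted p = 4.4e-05) at 800 mm3.

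Since Jak1 was higher and Jak2 lower in Colon 26 without overlap, their ratio within a library had to separate the models in every kind of sample. The ratio thus restates these 2 differences and adds no separate result. Jak1 over Jak2, in FPKM, was 1.26 ± 0.0209 in CT-26 and 2.27 ± 0.0305 in Colon 26 cultures (SD, n = 3). In tumors of 100, 400 and 800 mm3 it was 1.8 ± 0.0817, 1.65 ± 0.0285 and 1.73 ± 0.0943 in CT-26 and 3.46 ± 0.188, 3.54 ± 0.0702 and 3.63 ± 0.158 in Colon 26 (SD, n = 4). The highest CT-26 library reached 1.87 and the lowest Colon 26 library 2.24. The ratios of the 2 chains of a receptor did not part the models in this way: Ifngr1 over Ifngr2 lay between 1.43 and 2.26 and Ifnar2 over Ifnar1 between 1.16 and 1.69 in all libraries, with overlapping groups in tumors of each size. The ratios were looked at after the values of the genes were known and were not tested.

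**Figure D3:**
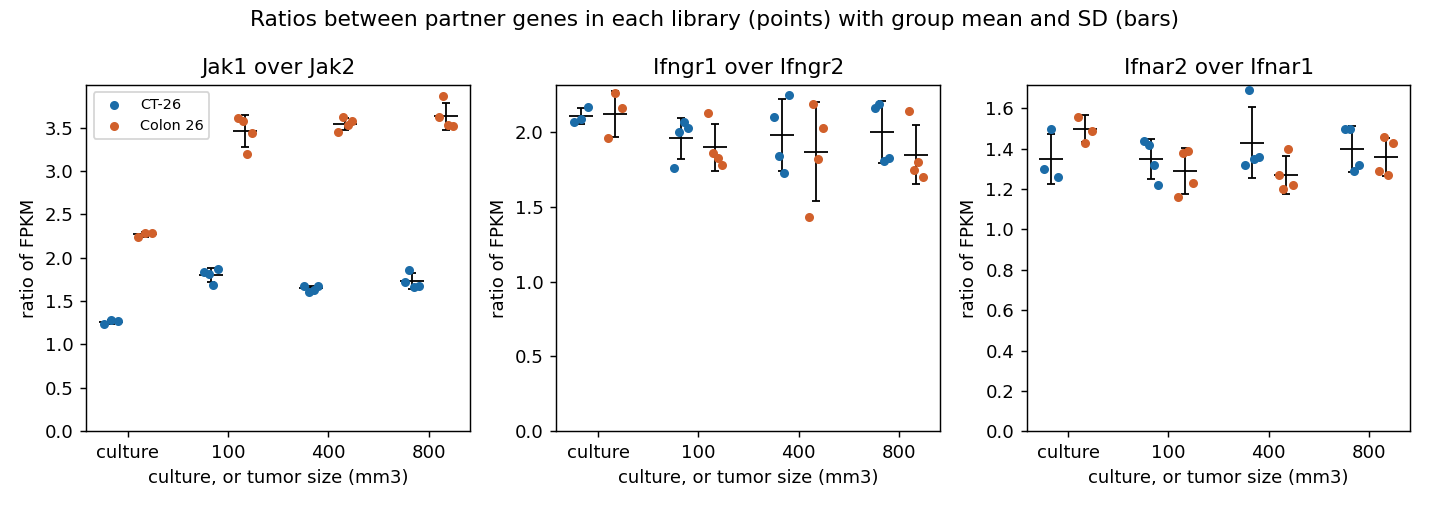
Ratio of FPKM between partner genes in each library (points) for cultures and for tumors of 3 sizes, blue for CT-26 and orange for Colon 26, with black bars for the group mean and SD and axes from 0. Jak1 over Jak2 stays at 1.24 to 1.87 in CT-26 and at 2.24 to 3.86 in Colon 26, while the other ratios overlap between the models in tumors.

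Of the receptor chains, Ifnar1 parted the models without overlap at each tumor size. Its levels were 16, 22.8, 21 and 19.6 FPKM in CT-26 and 27.2, 25.6, 27 and 26.4 FPKM in Colon 26 tumors of 100 mm3. At 800 mm3 they were 18.9, 18.6, 18.3 and 17.5 FPKM against 27.6, 25.4, 27.4 and 25.9 FPKM. Colon 26 was higher by log2 fold changes of 0.37 (SE 0.09, adjusted p = 0.0085), 0.45 (SE 0.07, adjusted p = 0.00083) and 0.48 (SE 0.05, adjusted p = 4.8e-05) at the 3 sizes.

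Some markers of leukocytes ran the same way as Ifnar1 and Jak1. Of 4 leukocyte markers, 2, 0 and 2 passed at the 3 sizes and were higher in Colon 26, and of 5 macrophage markers 1, 1 and 2. Of all genes, 26.4%, 25.9% and 28.3% passed with a higher value there, so the macrophage counts are near that share. The macrophage list holds Cd68, which stood at 48.3 to 52.2 FPKM in CT-26 cultures and at 2.73 to 3.62 FPKM in Colon 26 cultures. Its values in tumors can thus include tumor cells. Csf1r, the receptor of the macrophage growth factor, was higher in Colon 26 by 0.63, 1.01 and 0.68 on the log2 scale (adjusted p = 0.022, 0.05 and 0.00069). Some other markers did not follow it. The mean of the macrophage marker Adgre1 at 100 mm3 was 28.4 FPKM in CT-26 and 23.6 FPKM in Colon 26, with overlap. For the leukocyte marker Ptprc these means were 22 and 20.4 FPKM, also with overlap. At 100 mm3 the leukocyte markers summed to 189 to 339 FPKM in CT-26 and 246 to 348 FPKM in Colon 26, with overlap. Their part in the Ifnar1 and Jak1 values was not tested.

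Ifnar2, the other type I receptor chain, was higher in Colon 26 by 0.28 (SE 0.11, adjusted p = 0.066) at 100 mm3 and by 0.30 (SE 0.07, adjusted p = 0.0039) at 800 mm3 on the log2 scale. The value at 400 mm3 was 0.27 (SE 0.12, adjusted p = 0.11), which passed without CT-26 tumor b or d (adjusted p = 0.056 and 0.079), in the fit over all 30 libraries, with library size only and by limma. The groups overlapped at 100 and 400 mm3, and the call at 100 mm3 was lost without CT-26 tumor a or d or Colon 26 tumor b or c, with adjusted p of 0.11 to 0.15. The type II receptor chains had smaller values: Ifngr1 had log2 fold changes of -0.08, 0.01 and 0.02 (adjusted p = 0.36, 0.92 and 0.91) and Ifngr2 of -0.03, 0.13 and 0.14 (adjusted p = 0.73, 0.46 and 0.085). Ifngr1 passed at 100 mm3 without CT-26 tumor a (-0.12, adjusted p = 0.056). The pass of Ifngr2 at 800 mm3 was lost without filtering, in the fit over all 30 libraries, and without CT-26 tumor c or d or Colon 26 tumor b, c or d.

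Irf1 covered the widest range of FPKM among tumors of the 9 members, 43.7 to 167 FPKM in CT-26 and 22.7 to 65.9 FPKM in Colon 26. At 100 mm3 it stood at 98.1, 167, 86.7 and 43.7 FPKM in CT-26 and at 22.7, 65.9, 61.3 and 36.4 FPKM in Colon 26, where CT-26 tumor d fell within the Colon 26 values. At 400 mm3 it stood at 74.8, 134, 70.4 and 83.1 FPKM against 63.9, 37.4, 49.4 and 44.8 FPKM, with no overlap. At 800 mm3 it stood at 73.3, 85.5, 56.2 and 48 FPKM against 38, 49.3, 62.6 and 47.4 FPKM, and the groups overlapped.

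Colon 26 tumors had 2.2-fold less Irf1 at 100 mm3 (log2 fold change -1.13, SE 0.44, adjusted p = 0.059), 1.94-fold less at 400 mm3 (-0.95, SE 0.22, adjusted p = 0.0075) and 1.4-fold less at 800 mm3 (-0.48, SE 0.18, adjusted p = 0.046). The direction was the reverse of that in culture, where the value was 0.13 and did not pass by DESeq2 or in the fit over all 30 libraries. The call at 100 mm3 was lost without CT-26 tumor a or b or Colon 26 tumor a or d, with log2 fold changes of -1.11, -0.76, -0.90 and -1.03 and adjusted p of 0.11 to 0.15. The call at 800 mm3 was lost without CT-26 tumor b (-0.32, adjusted p = 0.13) or Colon 26 tumor a (-0.38, adjusted p = 0.11), in the fit over all 30 libraries and by limma.

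Genes listed as markers of natural killer cells moved with the Irf1 difference: all 4 were DE and lower in Colon 26 at each size. They are Ncr1, Klrb1c, Prf1 and Gzma, and Prf1 and Gzma are genes of cytotoxic T cells as well. Of all genes, 13.2%, 14.3% and 14.1% were DE in either direction at the 3 sizes. The 4 markers summed to 24.9 to 108 FPKM in CT-26 and 3.59 to 10.6 FPKM in Colon 26 at 100 mm3. Most of the CT-26 sum came from the shared genes, with means of 42.1 FPKM for Gzma and 12.7 FPKM for Prf1. The means of Ncr1 and Klrb1c were 3.86 and 0.625 FPKM, so the sum does not part natural killer cells from cytotoxic T cells. Of 5 T cell markers, 0, 4 and 0 were DE at the 3 sizes, each lower in Colon 26, and at 100 mm3 they summed to 5.19 to 38.1 FPKM in CT-26 and 2.31 to 15.4 FPKM in Colon 26. Of the 4 leukocyte markers, 2, 0 and 2 passed the adjusted p and were higher in Colon 26, as were 26.4%, 25.9% and 28.3% of all genes. No marker of these lists was at 0 in every library of a tumor group. Their part in the Irf1 values was not tested.

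Ifng itself was listed at 0 in all 6 cultures and reached 0.4 to 3.79 FPKM in CT-26 and 0.0548 to 1.11 FPKM in Colon 26 tumors. At 100 mm3 it stood at 1.5, 3.79, 1.01 and 0.517 FPKM in CT-26 tumors a to d and at 0.0548, 1.11, 0.97 and 0.281 FPKM in Colon 26 tumors a to d. Within each group of 4 tumors, the order by Ifng was also the order by Irf1, in 6 of 6 groups. Socs1 followed that order in 5 of 6 groups, Ifngr2 in 2, Ifnar2, Jak1, Jak2 and Socs3 in 1 each and Ifngr1 and Ifnar1 in 0. Of the 11021 protein-coding genes with a mean count of at least 100 in tumors, 0.0454% (Erap1, Igtp, Irf1, Psme2 and Tapbpl) matched it in all 6. This likeness was noticed after the values were seen, it has no test, and Ifng rests on only 2 to 140 counts a tumor.

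Socs1 and Socs3 differed less steadily between the tumor models. Socs1 stood at 11.7, 13.7, 7.88 and 7.65 FPKM in CT-26 and at 5.69, 9.15, 8.54 and 7.4 FPKM in Colon 26 tumors of 100 mm3. The groups overlapped, and the log2 fold changes of -0.46, 0.13 and 0.21 at the 3 sizes missed the threshold (adjusted p = 0.12, 0.67 and 0.14). At 100 mm3 Socs1 passed without CT-26 tumor c (-0.56, adjusted p = 0.082) or d (-0.58, adjusted p = 0.063) and in the fit over all 30 libraries (adjusted p = 0.062). At 800 mm3 it passed without CT-26 tumor b (0.32, adjusted p = 0.023) or Colon 26 tumor a (0.27, adjusted p = 0.088), with library size only and by limma (adjusted p of 0.07 to 0.08). Socs3 passed only at 800 mm3, where Colon 26 was 1.22-fold higher (log2 fold change 0.29, SE 0.13, adjusted p = 0.094). That call was lost when any of 6 of the 8 tumors was left out (all but CT-26 tumor a and Colon 26 tumor b), with adjusted p of 0.12 to 0.22. At 100 and 400 mm3 the Socs3 values were -0.08 and -0.33 (adjusted p = 0.5 and 0.21), the latter passing without CT-26 tumor d (adjusted p = 0.026) and in the fit over all 30 libraries (adjusted p = 0.069).

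The next question was how each member changes from culture to a tumor of 100 mm3. Irf1, Socs1, Socs3, Ifngr1 and Ifngr2 were higher in tumors of both models by more than 2-fold, the 2 chains of the type I receptor rose less, and Jak2 fell. By the adjusted p alone, 8 members were higher and 1 lower in CT-26, where 75.5% of all genes passed, 40.8% higher and 34.7% lower. In Colon 26, 7 were higher and 1 lower, where 78.9% of all genes passed, 42.6% higher and 36.3% lower. In each model 5 were DE, beside 32.2% of all genes in CT-26 and 26.9% in Colon 26. Ifngr1 in Colon 26 fell just short of 2-fold, which left 4 DE members, with library size only, without filtering, by limma and without culture a (log2 fold changes of 0.940 to 0.999). The median log2 fold change of the members was 1.21 in CT-26 and 1.02 in Colon 26, against 0.06 and 0.052 over all genes. These comparisons use the same cultures and 100 mm3 tumors as those between the models.

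**Figure D4:**
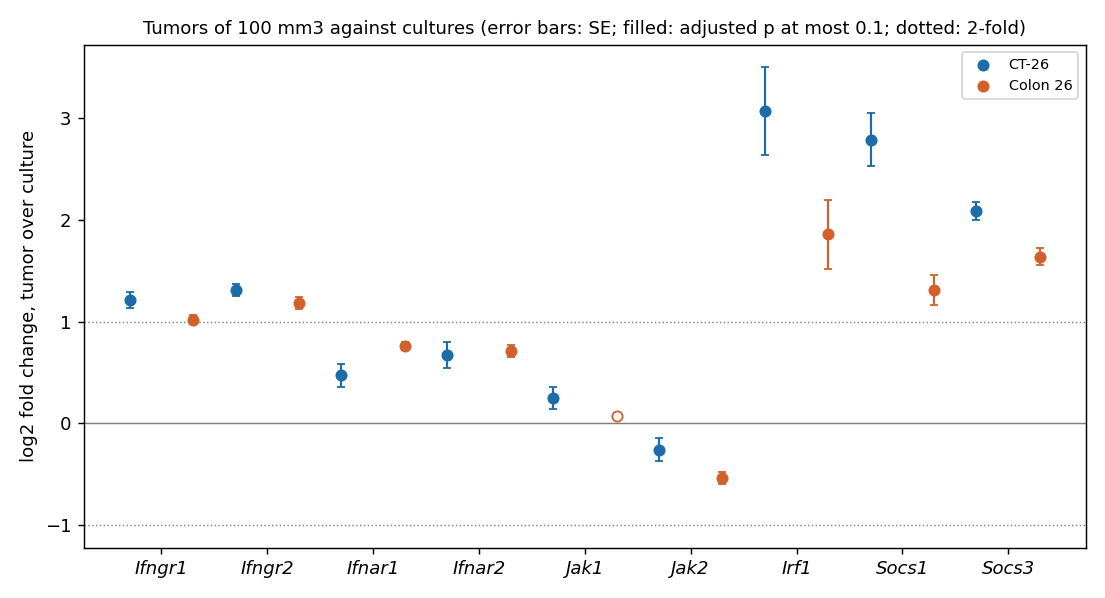
Log2 fold change of tumors of 100 mm3 over cultures (vertical axis) for each of the 9 genes, blue for CT-26 and orange for Colon 26, with error bars of 1 SE, filled points for an adjusted p of at most 0.1 and dotted lines at 2-fold. Irf1 (3.07 and 1.86), Socs1 (2.79 and 1.31) and Socs3 (2.09 and 1.64) lie highest, and Jak2 (-0.26 and -0.54) lies below 0.

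Irf1 rose 8.42-fold in CT-26 (log2 fold change 3.07, SE 0.43, adjusted p = 0.00028), from 11.9, 12.2 and 11.5 FPKM in cultures. In Colon 26 it rose 3.63-fold (1.86, SE 0.34, adjusted p = 0.00083), from 13, 12.9 and 13.4 FPKM. Each tumor, even the lowest at 22.7 FPKM, lay above each culture. The rise was smaller in Colon 26 by 1.26 on the log2 scale in the test of the interaction of model and tissue (SE 0.56, adjusted p = 0.087), a call lost when any of 10 of the 14 libraries was left out (adjusted p of 0.11 to 0.16) and under RLE factors or limma on log2(FPKM + 1).

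Socs1 rose 6.94-fold in CT-26 (log2 fold change 2.79, SE 0.26, adjusted p = 2.9e-05) and 2.47-fold in Colon 26 (1.31, SE 0.15, adjusted p = 5e-05). The rises differed by -1.53 on the log2 scale (SE 0.31, adjusted p = 0.0011). The Colon 26 cultures had started 2.12-fold higher, and the tumor groups overlapped. Socs3 rose 4.26-fold in CT-26 and 3.12-fold in Colon 26 (log2 fold changes 2.09 and 1.64, SE 0.09 and 0.08, adjusted p = 8.3e-07 and 1.6e-07), and these rises differed by -0.50 (SE 0.12, adjusted p = 0.0037), which did not pass in the fit over all 30 libraries (-0.45, adjusted p = 0.13). Over the interaction, 6 members passed the adjusted p, all with a lower value in Colon 26 (51% of all genes passed, 28.4% with a lower value), and 2, Irf1 and Socs1, were DE (17.6%). The Socs1 call alone passed under all 22 alternatives.

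The type II receptor chains rose in both models. Ifngr1 went from 11.4, 11.6 and 11.6 to 22.6, 28.1, 28 and 28.1 FPKM in CT-26, a 2.31-fold rise (log2 fold change 1.21, SE 0.08, adjusted p = 6.6e-06). It went from 12.6, 13.3 and 13.5 to 26.9, 25.9, 26.2 and 25.3 FPKM in Colon 26, a 2.02-fold rise (1.02, SE 0.04, adjusted p = 8.2e-08). Cultures and tumors did not overlap. Ifngr2 rose 2.49-fold and 2.26-fold (log2 fold changes 1.31 and 1.18, SE 0.06 and 0.06, adjusted p = 1.2e-06 and 2.7e-07). The interaction was -0.24 for Ifngr1 (SE 0.09, adjusted p = 0.046) and -0.18 for Ifngr2 (SE 0.08, adjusted p = 0.091). Of 22 alternatives, 5 ended the first call and 16 the second, DESeq2 and RLE factors in both cases.

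Ifnar1 rose 1.38-fold in CT-26 (log2 fold change 0.47, SE 0.11, adjusted p = 0.006) and 1.7-fold in Colon 26 (0.76, SE 0.04, adjusted p = 1.5e-07). Ifnar2 rose 1.59-fold and 1.63-fold (log2 fold changes 0.67 and 0.71, adjusted p = 0.0021 and 8.6e-06). Jak2 fell in both, by 0.26 in CT-26 (SE 0.11, adjusted p = 0.056) and by 0.54 in Colon 26 (SE 0.06, adjusted p = 3.3e-05) on the log2 scale. Jak1 rose by 0.25 in CT-26 (SE 0.11, adjusted p = 0.059), a call that was lost without any one of the 3 CT-26 cultures, and had a log2 fold change of 0.07 in Colon 26 (SE 0.03, adjusted p = 0.1, just above the threshold), which passed without Colon 26 tumor a or d, under RLE factors and with the 10-count minimum (adjusted p of 0.013 to 0.073). The CT-26 call for Jak2 was lost without tumor d or culture b. The 2 falls of Jak2 differed by -0.33 (SE 0.13, adjusted p = 0.053), which was lost under RLE factors and without Colon 26 culture a. The interactions of Ifnar1 (0.25, adjusted p = 0.12) and Jak1 (-0.24, adjusted p = 0.11) missed the threshold. Ifnar1 passed without CT-26 tumor a or b or Colon 26 tumor b or d, and by DESeq2, RLE factors, library size only, the 10-count minimum, the fit over all 30 libraries and limma (adjusted p of 0.011 to 0.099). Jak1 passed without CT-26 tumor a, b or c and without filtering (adjusted p of 0.033 to 0.099).

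Markers of leukocytes moved with all of these rises. Their 4 genes summed to 0.0891 to 0.888 FPKM over the cultures of both lines and to 189 to 348 FPKM over the tumors of 100 mm3. In each model 4 of 4 were DE and higher in tumors, as were 4 of 4 endothelial markers and 3 of 4 fibroblast markers. Of all genes, 32.2% in CT-26 and 26.9% in Colon 26 were DE in either direction. The cultured lines held some fibroblast markers themselves. Pdgfrb had means of 6.2 FPKM in CT-26 and 13.7 FPKM in Colon 26 cultures, and Pdgfra of 3.16 and 5.59 FPKM. Such markers are thus not particular to the host's stroma. Over the 6 cultures no leukocyte marker was at 0 throughout. Their part in the rises of the members was not tested.

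The last question was whether the members change as tumors grow. In CT-26, 0 of the 9 members passed the adjusted p from 100 to 400 mm3 or from 100 to 800 mm3, where 0 of 15104 and 0 of 15298 genes did (0% each) by edgeR. DESeq2 called 0 members in both, and 2 and 1 members had an unadjusted p under 0.05. From 100 to 400 mm3, Jak2 (0.25, adjusted p = 0.021), Ifngr2 (-0.225, adjusted p = 0.084) and Socs1 (-0.49, adjusted p = 0.09) passed in the fit over all 30 libraries. Jak2 also passed without tumor b of 100 mm3 (0.34, adjusted p = 0.071), and Socs3 without tumor d of 400 mm3 (0.43, adjusted p = 0.059). The largest values were those of Socs1, with log2 fold changes of -0.49 (SE 0.24, adjusted p = 0.26) at 400 mm3 and -0.61 (SE 0.21, adjusted p = 0.42) at 800 mm3, and of Irf1 at 800 mm3, at -0.57 (SE 0.35, adjusted p = 0.56).

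In Colon 26, 0 members passed from 100 to 400 mm3 (0.0197% of all genes did, and 0.0131% were DE), with 1 at an unadjusted p under 0.05 and 0 by DESeq2. From 100 to 800 mm3, 1 passed (6.67% of all genes) and 0 were DE (1.33%). This was Socs3, which stood at 31.3, 32.5, 38.1 and 37.8 FPKM at 100 mm3 and at 50.7, 39.2, 45.2 and 45.5 FPKM at 800 mm3. Each of the larger tumors lay above each of the smaller ones, a rise of 1.29-fold (log2 fold change 0.37, SE 0.10, adjusted p = 0.073). The call was lost when any tumor but tumor b of 800 mm3 was left out (adjusted p of 0.11 to 0.17) and in the fit over all 30 libraries (adjusted p = 0.21). For the other 8 members the log2 fold changes at 800 mm3 lay between -0.03 and 0.07.

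The changes with size were not shown to differ between the models for any member by edgeR or DESeq2. In the tests of the interaction of model and size, 0 members passed at 400 mm3 (0% of all genes) and 0 at 800 mm3 (0.0801%, with 0.0308% DE), with 1 member in each at an unadjusted p under 0.05. The Irf1 differences between models, -1.13, -0.95 and -0.48 on the log2 scale, were thus not shown to change with size (interactions of 0.15, SE 0.53, adjusted p = 0.97, and 0.64, SE 0.51, adjusted p = 0.64).

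The rest of the pathway was read from other genes, which ran in both directions. Stat2, a STAT of the type I receptor, was DE and lower in Colon 26 at 100 mm3 (log2 fold change -1.79, adjusted p = 0.004) and at 400 mm3 (-1.77, adjusted p = 0.00012), and passed at 800 mm3 short of 2-fold (-0.96, adjusted p = 0.0047). In cultures Stat5a and Jak3, which serve cytokine receptors, were DE and higher in Colon 26, with log2 fold changes of 1.55 (adjusted p = 9.7e-11) and 1.16 (adjusted p = 1.1e-10). Over tumors of all sizes, Jak3 stood at 30.6 to 41.4 FPKM in Colon 26 and at 16.7 to 27.7 FPKM in CT-26. Stat5a stood at 4.55 to 5.77 against 1.96 to 3.06 FPKM, and Tyk2 at 11.3 to 14 against 7.11 to 10.6 FPKM.

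At 100 mm3, 26.4% of all genes passed with a higher and 30.1% with a lower value in Colon 26. Among 7 other interferon regulatory factors tested, 0 were higher and 3 lower there, with Irf7, the factor that amplifies type I interferon, DE at -2.44 (adjusted p = 0.00057) and at -2.40 and -1.86 at the larger sizes (adjusted p = 0.00012 and 0.0033). Of 14 other inhibitors, 2 were higher and 8 lower at 100 mm3, so that 10 passed beside 56.5% of all genes. Usp18, which restrains the type I receptor at Ifnar2, and Socs5 were DE there, at -3.03 (adjusted p = 0.00032) and -1.05 (adjusted p = 1.3e-05). Usp18 was DE and lower in Colon 26 in cultures as well (-1.10, adjusted p = 3.4e-10).

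Of 12 interferon-inducible genes, 8 passed and were lower in Colon 26 at 100 mm3, 9 at 400 mm3 and 8 at 800 mm3, and 0 were higher. Of all genes, 30.1%, 26.3% and 31% passed with a lower value at these sizes and 26.4%, 25.9% and 28.3% with a higher one. The median of the list was -1.54, -1.27 and -0.70 on the log2 scale, against -0.002, 0.028 and -0.006 over all genes. At 100 mm3 the largest were Ido1 (-4.04), Gbp3 (-3.00), Gbp2 (-2.48) and Gbp4 (-2.37). Ido1 had too few counts to be tested between Colon 26 tumors of 400 and 100 mm3. In cultures 5 were higher and 3 lower in Colon 26 among 9 tested (42.2% and 40.4% of all genes), with Psmb8 (2.14) and Cxcl10 (1.67) higher and Nlrc5 (-1.78) and Gbp4 (-1.72) lower among the DE genes. From culture to 100 mm3 tumors 12 of 12 tested rose in CT-26 and 11 of 11 in Colon 26, where 40.8% and 42.6% of all genes did.

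The ligands were mostly near the floor. Of 10 interferon genes, Ifng alone had enough counts to be tested, and only in comparisons with tumors. Its log2 fold change of Colon 26 over CT-26 was -1.52 (adjusted p = 0.15), -1.61 (adjusted p = 0.049) and -0.35 (adjusted p = 0.51) at the 3 sizes. Ifnb1 never exceeded 9 counts and Ifna1, Ifnk, Ifnl2 and Ifnl3 were listed at 0 in all libraries.

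Of 16 other receptors and ligands that signal through Janus kinases, 4 were higher and 4 lower in Colon 26 among 15 tested at 100 mm3, a share near the 56.5% of all genes that passed. Il11, a ligand of the gp130 receptor family, and Il2rg were DE there, at -1.78 and -1.13 (adjusted p = 0.00027 and 0.0079). In cultures, where 82.6% of all genes passed, 4 were higher and 6 lower among 10 tested, led by Osmr (4.40) and Il2rg (-3.45), both DE. Both were near the floor in the lower line, with 5 to 9 counts of Osmr in CT-26 and 15 to 20 counts of Il2rg in Colon 26 cultures. As Colon 26 tumors grew from 100 to 800 mm3, Il6 was DE and higher (1.72, adjusted p = 0.0057), from 14 to 18 counts a tumor at 100 mm3. Lif and Il11 passed the adjusted p (0.80 and 0.59), where 6.67% of all genes passed and 1.33% were DE. A link between these ligands and Socs3, whose call in the same comparison was lost without most single tumors, was not tested.

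The genes whose pattern over the 24 tumors was most like that of a member were found by Pearson's r of log2 CPM among 11021 protein-coding genes. For Irf1 they were Gbp4 (r = 0.972) and Iigp1 (r = 0.968). For Jak2 they were Prrx1 (r = 0.975) and Gng12 (r = 0.970), for Jak1 Prpf8 (r = 0.970) and Slc44a2 (r = 0.959), and for Ifnar1 Bin2 (r = 0.967) and Ndst2 (r = 0.965). The points fall into 2 models that differ in these genes, so r over all tumors includes the difference between the models.
For Ifnar2 they were Vipas39 (r = 0.911) and Akna (r = 0.908), for Socs1 Hk3 (r = 0.854) and Mov10 (r = 0.821), and for Ifngr2 Rab20 (r = 0.847) and Bcl2a1b (r = 0.844). The lowest likeness was that of Socs3, to Clip2 (r = 0.797) and Lcn2 (r = 0.780), and of Ifngr1, to Cd93 (r = 0.759) and Lyn (r = 0.754).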

How the data were processed

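RNA-seq of 30 libraries was analysed from the deposited tables. The authors counted paired-end reads of poly-A libraries on Ensembl release 78 genes with Array Studio and deposited estimated counts, which are not normalized and of which 23% of those above 0 were fractional, and the authors' own FPKM. The aligner, build and handling of strand are not given in the sources used here. The submitters' processing notes name DESeq2 1.24.0.

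Counts were rounded and tested with edgeR 4.0.16 in R 4.3.3 (quasi-likelihood test) with TMM factors, filterByExpr and Benjamini-Hochberg adjustment over all genes tested, in fits of only the libraries compared. DE means an adjusted p of at most 0.1 and a change of at least 2-fold. The SE of a log2 fold change was derived from F. Levels are FPKM as deposited. Library totals were 21384730 to 39722586 counts. No replicates agreed within counting noise: the variance between them was 2.91 to 73.9 times that of counting over 42 pairs.

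The alternatives were DESeq2 1.42.0, RLE factors, library size only, no filter, a minimum of 10 counts per library, a joint fit of the 30 libraries, limma 3.58.1 on log2 FPKM with a pseudocount of 1 or 0.1, a threshold of 0.05, the adjusted p without a fold minimum, and leaving out each library. The fit was tested on simulated data. Symbols and positions come from GENCODE M21, which held 97.7% of the gene identifiers.

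The text names the 9 members, of each other list at most 6 DE genes a comparison (and passing genes where a count is given, chosen after their values were seen), and for each member the 2 genes most like it. A few more list genes are named with their levels because they ran against those named. The members and lists were chosen with earlier results of these data known. Results of some genes, and counts over a list that holds them, are not reported here. Letters a to d only name libraries.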

Additional observations from a re-analysis of the deposited data

Results flagged for a closer look

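Of 54 groups of 4 tumors examined gene by gene, 4 held a library far from the other 3 (chance flags about 1 in 20). Ifngr1 was at 22.6 FPKM in CT-26 tumor a of 100 mm3 against 28 to 28.1 in the others, and Jak1 at 33.2 FPKM in Colon 26 tumor a of 400 mm3, the tumor with the most muscle markers, against 36.8 to 37.1. Jak1 was at 37.8 FPKM in Colon 26 tumor d of 800 mm3 against 35.7 to 35.8, and Jak2 at 18.6 FPKM in CT-26 tumor b of 400 mm3 against 16.9 to 17.1.

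For 6 members the change from culture to 100 mm3 tumors differed between the models by the interaction term of edgeR's quasi-likelihood test, as Colon 26 minus CT-26 on the log2 scale. The difference was -1.53 for Socs1 (adjusted p = 0.0011), -1.26 for Irf1 (adjusted p = 0.087), -0.50 for Socs3 (adjusted p = 0.0037), -0.33 for Jak2 (adjusted p = 0.053), -0.24 for Ifngr1 (adjusted p = 0.046) and -0.18 for Ifngr2 (adjusted p = 0.091). Under the alternatives run, only the Socs1 call was never lost: the highest adjusted p was 0.0045 for Socs1, 0.16 for Irf1, 0.13 for Socs3, 0.11 for Jak2, 0.35 for Ifngr1 and 0.51 for Ifngr2.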

How the results depend on the processing

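No called value of a member changed sign under any alternative run. Of 2034 recomputed values of single members, 1913 kept their side of the threshold, 80 lost and 41 gained a pass, and 107 values that missed the threshold before and after changed sign. Without a minimum fold change, the count of DE members was 9, 5, 4 and 7 for Colon 26 against CT-26 in cultures and in tumors of 100, 400 and 800 mm3, 9 and 8 for tumors against cultures in CT-26 and Colon 26, 1 for Colon 26 tumors of 800 against 100 mm3 and 6 for the interaction of model and tissue. An adjusted p of 0.05 gave 0 at 100 mm3 and 1 for that interaction, RLE factors gave 1 for the interaction, and limma on log2(FPKM + 1) gave 0 in cultures and 1 for the interaction. Leaving out each library gave 0 to 1 DE members at 100 mm3, 0 to 1 at 400 mm3, where Irf1 passed 2-fold without CT-26 tumor a, c or d or Colon 26 tumor a, and 1 to 2 for the interaction, which lost Irf1. The causes were not tested. No paired analysis was possible because the labels carry no replicate numbers.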
